A study of Saccharomyces cerevisiae with 14 samples.

Results

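The genes described here encode subunits of the budding yeast chromatin remodellers other than INO80, together with the 4 subunits that INO80 shares with other complexes. They were chosen by name and not by any measured value, and they make up 47 of the 6612 transcripts quantified. The list holds 10 genes of SWR1, 14 of RSC, 3 that RSC and SWI/SNF share, 8 of SWI/SNF, 4 of ISW1, 2 of ISW2, *CHD1*, *FUN30*, and the shared subunits *ARP4*, *TAF14*, *RVB1* and *RVB2*.

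RNA was sequenced from *arp8-AA* cells, strain yPB4, whose *ARP8* gene carries the changes S65A and S233A, and from *ARP8* cells, strain yCFK51. Arp8 is a subunit of INO80, and the changed serines are sites that the kinase DDK phosphorylates, so the comparison asks how the loss of these sites bears on transcript levels. Both strains are MAT a in the S288c background and carry his3Δ1, leu2Δ0 and ura3Δ0. The labels list met15Δ0 for the *ARP8* strain only, although *MET17*, the gene also called *MET15*, had 0 estimated counts in all 14 libraries. Cultures were either asynchronous, with 3 libraries per genotype, or arrested in G1 with the mating pheromone α-factor and collected 10 or 20 min after release, with 2 libraries per genotype and time. The labels call the libraries of a group biological replicates. According to the study, *arp8-AA* cells enter S phase late, so the released cells of both genotypes share a time but may differ in cell cycle stage.

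Chromatin remodellers use ATP to slide, eject or restructure nucleosomes. Each is built around 1 ATPase of the Snf2 family, and the other subunits dock it to nucleosomes, histone marks, DNA sequences or activators. In yeast, SWR1 exchanges H2A for the variant H2A.Z, RSC and SWI/SNF slide and eject nucleosomes at promoters, and ISW1, ISW2 and Chd1 space nucleosomes into regular arrays. Fun30 acts in silent chromatin and at DNA breaks.

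The ATPase genes are close relatives, so whether their reads can be told apart was looked at first in the sequences. The DExH box, the motif of the ATPase that takes part in ATP hydrolysis, is shown for the 7 ATPase genes because it is the stretch that they have in common. Capitals mark the 12 bases that encode the 4 residues of the box, DEGH in *STH1*, *SNF2* and *FUN30* and DEAH in the other 4, with 15 bases on either side, read 5′ to 3′ on the coding strand of build R64.
*SNF2*, chrXV:857553-857594, minus strand: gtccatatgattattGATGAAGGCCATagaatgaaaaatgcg
*STH1*, chrIX:119765-119806, plus strand: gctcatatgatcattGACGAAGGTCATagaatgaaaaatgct
*FUN30*, chrI:117010-117051, plus strand: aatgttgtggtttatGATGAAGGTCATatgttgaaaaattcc
*ISW1*, chrII:710544-710585, minus strand: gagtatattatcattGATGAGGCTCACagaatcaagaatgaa
*ISW2*, chrXV:885432-885473, plus strand: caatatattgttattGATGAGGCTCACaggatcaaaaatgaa
*CHD1*, chrV:506913-506954, plus strand: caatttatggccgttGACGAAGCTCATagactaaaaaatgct
*SWR1*, chrIV:1138386-1138427, plus strand: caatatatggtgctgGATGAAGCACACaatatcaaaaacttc

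Of the 42 bases shown, *STH1* had 36 in common with *SNF2*, *ISW1* 29, *ISW2* 28, *CHD1* 27, *FUN30* 27 and *SWR1* 24. Even so, the longest run of identical bases between the coding sequences of any 2 of these ATPases was 26, in *SNF2* and *STH1*. That is shorter than the 31-base words by which kallisto, the program behind the deposited counts, assigns reads, so none of its default words joined any 2 ATPase genes.

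For 43 of the 47 members no 31-base word occurred in another coding sequence of the annotation, which holds 5917 of the 6612 transcripts. The other 695 were not searched. The exception of size was *RSC30* (YHR056C_mRNA), a zinc cluster protein of RSC, of whose words 39.5% also occurred in YHR054C. The last 1065 bases of *RSC30*, positions 1588 to 2652, were identical to the whole coding sequence of YHR054C. The border is printed because it limits what can be said of *RSC30*, with the shared part in capitals, on the minus strand of build R64.
*RSC30*, chrVIII:216218-216277: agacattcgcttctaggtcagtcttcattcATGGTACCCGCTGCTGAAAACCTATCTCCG
YHR054C, chrVIII:214220-214249: ATGGTACCCGCTGCTGAAAACCTATCTCCG

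Reads from the shared stretch were divided between *RSC30* and YHR054C by estimation, so the levels of both are uncertain. *RSC2* (YLR357W_mRNA) shared 18.3% of its words with YLR358C, which overlaps it on the opposite strand and had at most 3 counts in any library. *SNF5* (YBR289W_mRNA) shared 0.93% and *IOC2* (YLR095C_mRNA) 0.21% with other genes.

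The libraries held between 1864995 and 6016858 estimated counts, of which the members took between 0.449 and 0.569%. The marker genes of MAT a cells summed to between 326 and 2863 TPM, a level per transcript length and library size, and those of MATα cells to between 0.38 and 12.5 TPM, so the libraries matched the labelled mating type. The summed level of the 8 core histone genes, which are transcribed in S phase, was 9479 and 24883 TPM in *arp8-AA* and 15001 and 24495 TPM in *ARP8* cells at 20 min, against 2692 and 9819 TPM in *arp8-AA* and 3447 and 14063 TPM in *ARP8* cells at 10 min, given as replicate 1 and then replicate 2. Replicate 2 was thus the higher in all 4 released groups, and its part in the values of the released cells was not tested. For bulk samples, a change in RNA per cell and a change in the share of cells at a stage cannot be told apart.

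Transcripts of RSC made up the largest share of the members' summed TPM, 39.9% on average over the 14 libraries. SWR1 took 16.1%, the subunits shared with INO80 15.9%, SWI/SNF 11.6%, the ISW1 genes 5.99%, the subunits that RSC and SWI/SNF share 4.68%, the ISW2 genes 2.35%, *FUN30* 1.94% and *CHD1* 1.44%. The share of RSC lay between 35.8 and 43.1% in single libraries and that of SWR1 between 13.9 and 17.6%. Of the 47 members, 39 averaged between 10 and 100 TPM, 4 more than 100 TPM and 4 less than 10 TPM. The median of their means, 29.7 TPM, stood against 22.5 TPM over all transcripts.

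**Figure D1:**
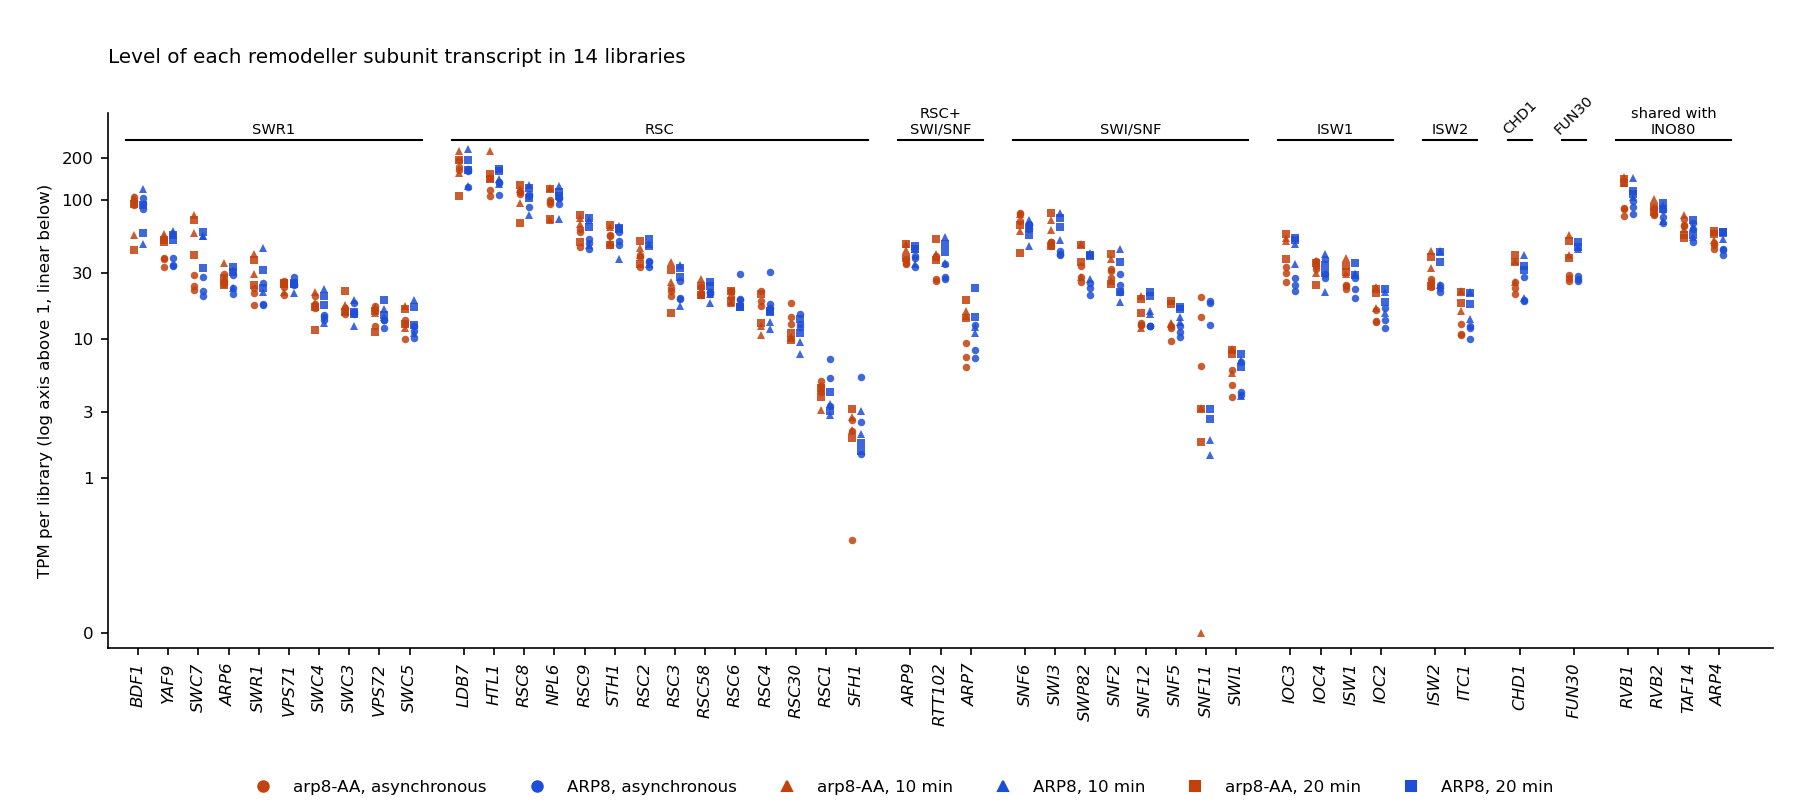
Level in TPM of the 47 members (horizontal axis, by complex and in falling order of mean) in each of the 14 libraries, on a log axis above 1 TPM and a linear one below; colour marks the genotype and shape the growth state. Most members lie between 10 and 100 TPM, *LDB7* and *HTL1* are the highest, and *SFH1*, *RSC1*, *SWI1* and *SNF11* the lowest.

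Between the genotypes, none of the remodeller genes passed the test in any state. In asynchronous cells 0 of 47 members had an adjusted p under 0.05 (edgeR quasi-likelihood F-test, two-sided, replicate as a block), where 0.942% of the 5204 transcripts tested did, and 1 member (2.13%) had an unadjusted p under 0.05, beside 15.9% of all transcripts. At 10 min 0 of 46 members were called against a background of 0%, and 0 had an unadjusted p under 0.05, beside 2.82%. At 20 min 0 of 46 were called against 0.0183%, and 2 (4.35%) had an unadjusted p under 0.05, beside 7.15%. Averaged over both time points 0 of 46 were called against 0.0917%, and for the interaction of genotype and time 0 of 46 against 0%, with 0 and 1 members at an unadjusted p under 0.05, beside 6.36 and 2.02% of all transcripts. DESeq2 likewise called 0 members in each of these comparisons. *SNF11* is the member missing from the released cells, where its counts were too low to be tested.

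How large a difference remained possible is given by the 95% intervals of the fold changes. In asynchronous cells the interval lay within a 2-fold change for 45 of 47 members and within a 1.5-fold change for 39. The exceptions to the 2-fold limit were *SFH1* and *SNF11*, which had the fewest counts. At 10 min 44 of 46 intervals lay within 2-fold, with *SFH1* and *RTT102* outside, and 33 within 1.5-fold. At 20 min the numbers were 45, with *SFH1* outside, and 23. Averaged over both times, all 46 intervals lay within 2-fold and 43 within 1.5-fold.

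**Figure D2:**
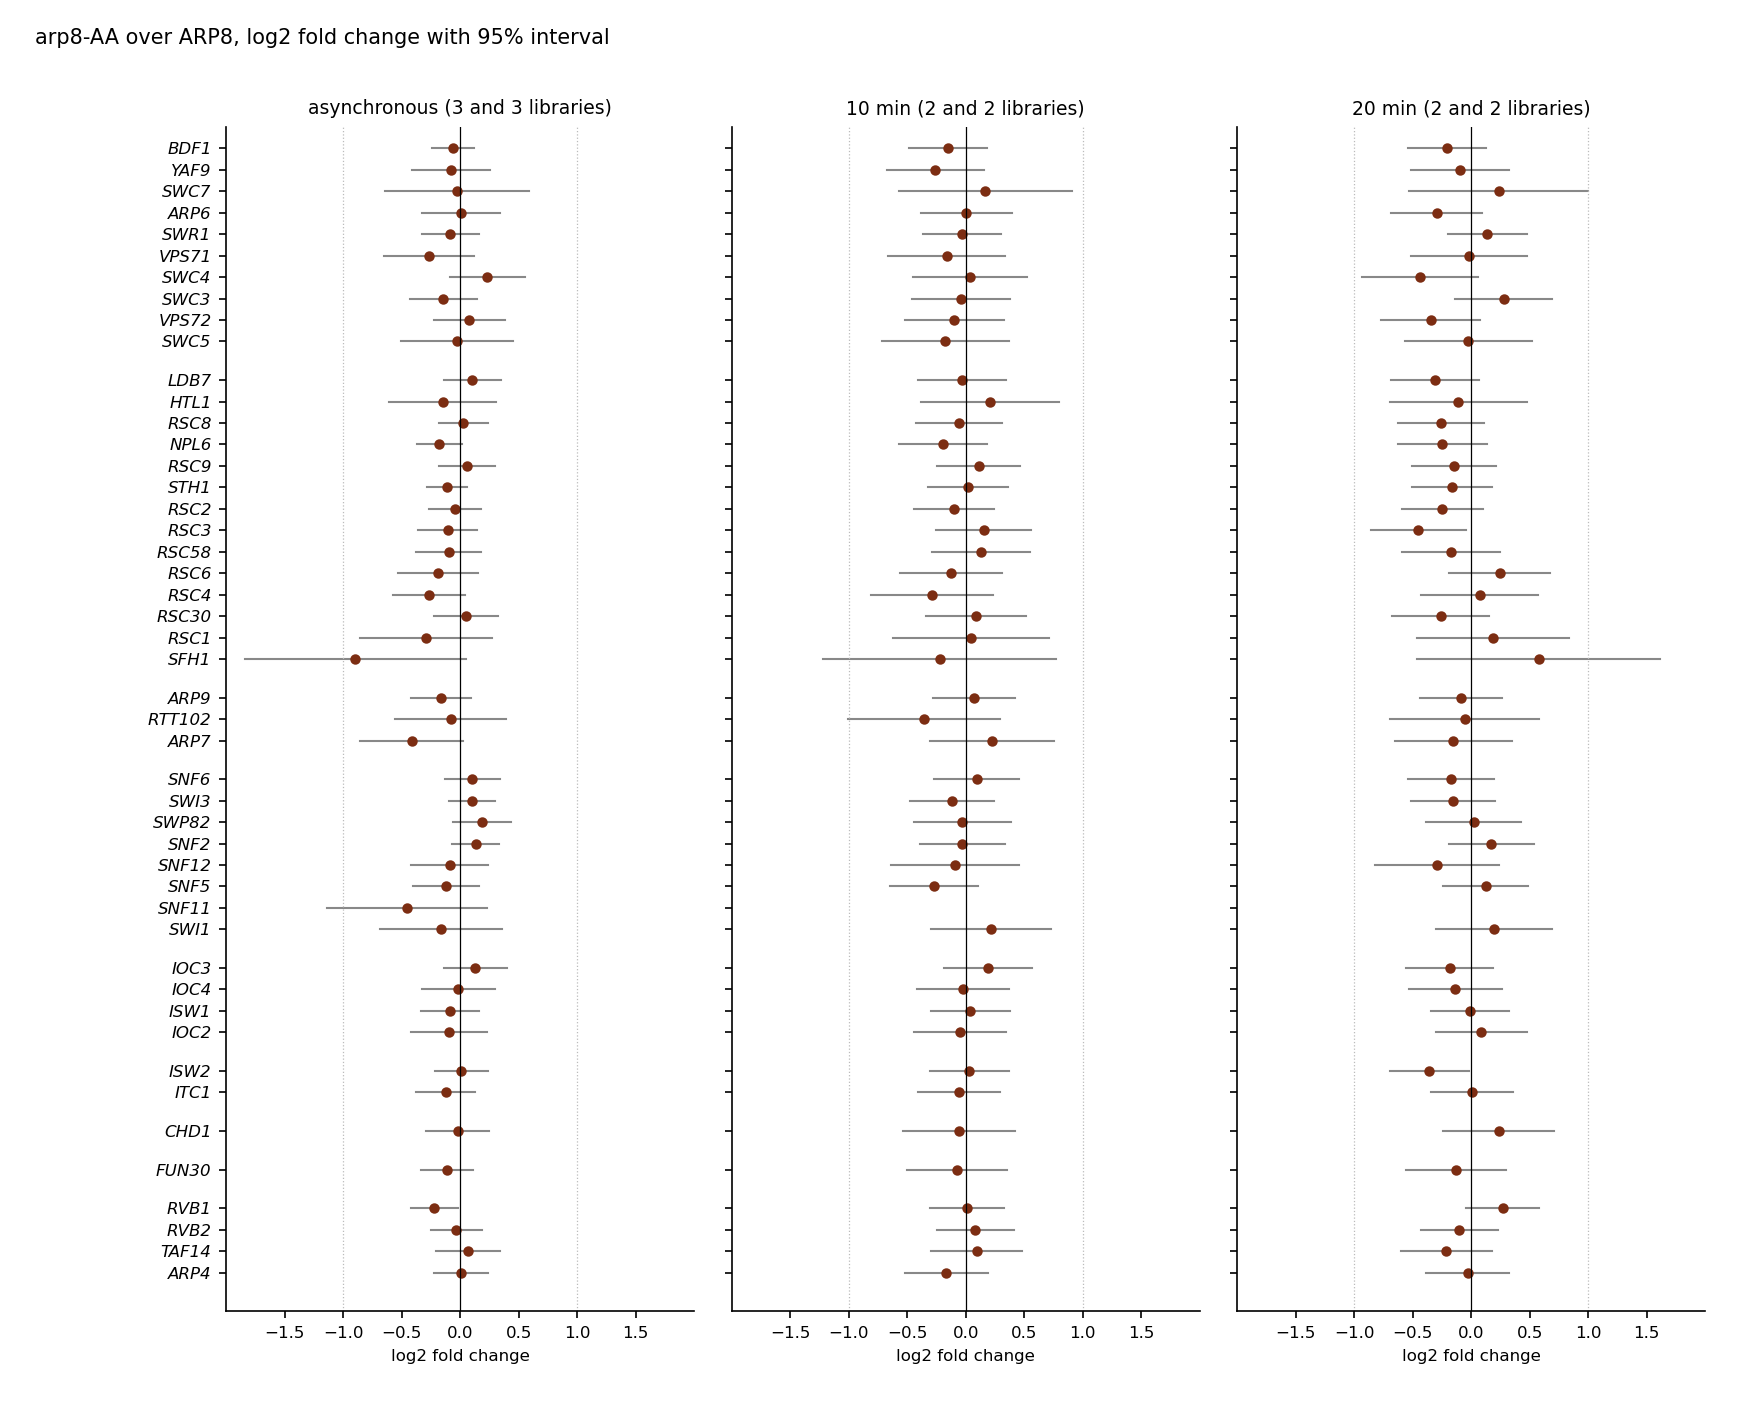
Log2 fold change of *arp8-AA* over *ARP8* (horizontal axis) for each member (rows, grouped by complex) in asynchronous cells and at 10 and 20 min after release; points are the edgeR estimates, bars their 95% intervals, and dotted lines mark a 2-fold change. All points lie within the dotted lines, the furthest out being *SFH1* in asynchronous cells. The widest bars belong to *SFH1*, and *SNF11* is drawn in asynchronous cells only. *RVB1* in asynchronous cells and *RSC3* and *ISW2* at 20 min are the points whose bars do not reach 0.

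After TMM scaling, the members as a group lay slightly below the middle of all transcripts in asynchronous *arp8-AA* cells. Their median log2 fold change was -0.08, against -0.0031 over all transcripts, and 15 of 47 (31.9%) were above 0, against 49.5%. In 12 members (25.5%) the TMM-scaled level was lower in *arp8-AA* in every one of the 3 replicate pairs, beside 18.7% of all transcripts, and in 4 members (8.51%) it was higher in every pair, beside 19.4%. The 12 were *SWC3*, *VPS71* and *YAF9* of SWR1, *STH1*, *RSC4*, *RSC58*, *SFH1* and *NPL6* of RSC, *ARP7*, *SNF5*, *ITC1* and *RVB1*, and the 4 were *SWC4*, *SWP82*, *SNF6* and *SWI3*. Since members of a complex are not replicates, these counts describe the list only. They also depend on the scale. In deposited TPM the members' sum was the higher in *arp8-AA*, 1870, 1756 and 1854 TPM against 1724, 1730 and 1722 TPM in *ARP8* cells. On that scale the median transcript was also higher in each pair, at 20.65, 17.45 and 19.75 TPM against 19.1, 16.59 and 16.54 TPM. The summed core histone level of the same libraries was 11088, 10225 and 10559 TPM in *arp8-AA*, against 12439, 12122 and 12063 TPM in *ARP8* cells, without overlap. All 8 histone estimates were below 0, with a median log2 of -0.37, and 3 (*HHF1*, *HHT1* and *HTA1*) passed the edgeR test, but 0 did without the replicate block, with DESeq2, with all 14 libraries in 1 fit or without replicate 2 or 3 of either genotype. Without replicate 1 of either genotype 4 passed, *HHF2* being the one added, and 6 of 8 estimates were below 0. The part of the histone difference in the members' values was not tested. In released *arp8-AA* cells the members also lay below the middle on the TMM scale. Over both time points 15 of 46 (32.6%) were above 0, against 49.8%, with a median log2 of -0.064. At 10 min 43.5% were above 0, against 49.4%, and at 20 min 32.6%, against 53.3%. These counts, too, describe the list only. Over the 4 pairs of released libraries, 3 members (*RSC2*, *BDF1* and *NPL6*) were lower in every pair, beside 7.98% of all transcripts, and 1 (*SWC7*) was higher in every pair, beside 8.34%.

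Among the subunits shared with INO80, *RVB1* (YDR190C_mRNA) had the lowest p of all members in asynchronous cells. Rvb1 and Rvb2 are AAA+ ATPases that form a ring in INO80 and SWR1. *RVB1* stood at 87.6, 76.5 and 85.8 TPM in *arp8-AA* cells, against 97.6, 89.5 and 79.5 TPM in *ARP8* cells, so the groups overlapped. The log2 fold change was -0.22 ± 0.09 (SE, n = 3 each), with an edgeR adjusted p of 0.267. At 20 min the estimate had the other sign, 0.27, with 142.8 and 133 TPM in *arp8-AA* cells against 116 and 111 TPM in *ARP8* cells.

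*RVB2* (YPL235W_mRNA) lay between 68.0 and 102 TPM over the 14 libraries, with a log2 fold change between genotypes of -0.03 in asynchronous cells, 0.08 at 10 min and -0.10 at 20 min. *ARP4* (YJL081C_mRNA), an actin-related protein also found in SWR1 and the acetyltransferase NuA4, was the steadiest in level of the group, from 40.2 to 60.4 TPM. Its estimates were 0.01 in asynchronous cells, -0.17 at 10 min and -0.03 at 20 min. *TAF14* (YPL129W_mRNA), a YEATS domain protein also found in SWI/SNF and TFIID, had 0.07, 0.09 and -0.21 in the same order. No member of the group passed the test.

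SWR1 complex transcripts ranged from 13.5 TPM for *SWC5* (YBR231C_mRNA) to 85.4 TPM for *BDF1* (YLR399C_mRNA) in their means. Bdf1 is the bromodomain protein of the complex and binds acetylated histones, and Swc5 is needed for histone exchange. The ATPase gene *SWR1* (YDR334W_mRNA) stood at 23.3, 21.4 and 17.6 TPM in asynchronous *arp8-AA* cells, against 25.3, 17.8 and 17.7 TPM in *ARP8* cells. These groups overlapped, and the log2 fold change was -0.08. At 10 min it was -0.03, with 40.7 and 29.4 TPM in *arp8-AA* cells against 44.97 and 22.0 TPM in *ARP8* cells. At 20 min it was 0.14.

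Within SWR1 the lowest p belonged to *SWC4* (YGR002C_mRNA), a subunit shared with NuA4, at 20 min. It had 17.1 and 11.6 TPM in *arp8-AA* cells, against 17.5 and 20.5 TPM in *ARP8* cells, and a log2 fold change of -0.44 ± 0.22 (SE, n = 2 each; edgeR adjusted p = 0.696). In asynchronous cells its estimate was 0.23, the highest of any member there, with 18.01, 16.8 and 20.5 TPM in *arp8-AA* cells against 14.8, 13.7 and 14.4 TPM in *ARP8* cells. These 2 groups did not overlap in TPM, but the difference did not pass the test. On that scale the median transcript was also higher in *arp8-AA* in each replicate pair. It stood at 20.65, 17.45 and 19.75 TPM in *arp8-AA* cells, against 19.1, 16.59 and 16.54 TPM in *ARP8* cells. Other members, among them *ARP4*, *SWI3*, *SNF6* and *RSC8*, did not overlap in TPM either. The share of all transcripts without overlap was not counted. For *SWC4* the sign of the estimate thus differed between growth states.

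*VPS72* (YDR485C_mRNA), which binds H2A.Z with H2B, and *BDF1* were named for their low p over both time points. *VPS72* had a log2 fold change of -0.22 ± 0.14 and *BDF1* one of -0.18 ± 0.11 (SE, 4 libraries per genotype; edgeR adjusted p = 0.790 for both). *YAF9* (YNL107W_mRNA), the YEATS domain protein that SWR1 shares with NuA4, stood at 56.7 and 54.1 TPM in *arp8-AA* cells, against 60.0 and 57.9 TPM in *ARP8* cells, at 10 min. The log2 fold change of -0.26 ± 0.19 had an edgeR adjusted p of 1. The other SWR1 genes, *SWC3* (YAL011W_mRNA), *SWC5*, *SWC7* (YLR385C_mRNA), *ARP6* (YLR085C_mRNA) and *VPS71* (YML041C_mRNA), had estimates between -0.30 and 0.28 in asynchronous cells and at 10 and 20 min.

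RSC, the only remodeller among these that is essential for growth in yeast, had both the most abundant and the least abundant members. *LDB7* (YBL006C_mRNA) averaged 170.4 TPM, *HTL1* (YCR020W-B_mRNA) 144 TPM, *RSC8* (YFR037C_mRNA) 107 TPM and *NPL6* (YMR091C_mRNA) 100.0 TPM. Htl1 and Ldb7 are small subunits, and *HTL1*, with a coding sequence of 237 bases, gave only 35 to 138 counts in a library in spite of its high TPM. At the other end, *RSC1* (YGR056W_mRNA) averaged 4.19 TPM and *SFH1* (YLR321C_mRNA) 2.38 TPM.

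Sfh1 is the RSC relative of Snf5, and its transcript gave between 3 and 24 counts in a library. In asynchronous cells it had 2.19, 2.60 and 0.60 TPM in *arp8-AA*, from 12, 12 and 3 counts, against 5.36, 2.53 and 1.49 TPM in *ARP8*, from 22, 13 and 7 counts. Its log2 fold change of -0.90 ± 0.43 (SE, n = 3 each) was the largest of any member, with a 95% interval from -1.84 to 0.05 and an edgeR adjusted p of 0.339. At 20 min the estimate was 0.58, of the other sign. Whether *SFH1* differed between the genotypes was therefore not settled at this depth.

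*STH1* (YIL126W_mRNA), the ATPase gene of RSC, stood at 56.3, 47.5 and 55.4 TPM in asynchronous *arp8-AA* cells, against 58.8, 47.6 and 51.1 TPM in *ARP8* cells. The groups overlapped, with a log2 fold change of -0.11. At 10 min the estimate was 0.02 and at 20 min -0.16. *NPL6*, which encodes a subunit of the same module as Htl1 and Ldb7, had 97.4, 92.9 and 99.9 TPM in asynchronous *arp8-AA* cells, against 103, 103 and 94.1 TPM in *ARP8* cells. Its log2 fold changes were -0.18 ± 0.09 in asynchronous cells (SE, n = 3 each; edgeR adjusted p = 0.341) and -0.22 ± 0.12 over both released time points (4 libraries per genotype; edgeR adjusted p = 0.790).

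*RSC3* (YDR303C_mRNA), a zinc cluster protein that binds DNA, had the lowest p of any member at 20 min. It stood at 31.2 and 15.4 TPM in *arp8-AA* cells, against 32.5 and 27.8 TPM in *ARP8* cells. The log2 fold change was -0.45 ± 0.18 (SE, n = 2 each; edgeR adjusted p = 0.694). The lower value of *arp8-AA* came from replicate 2, the library with the highest histone level, whose part in this value was not tested. At 10 min the order was turned, with 35.7 and 25.6 TPM in *arp8-AA* cells against 33.9 and 17.3 TPM in *ARP8* cells. The interaction of genotype and time, -0.61 ± 0.26, had an edgeR adjusted p of 0.962.

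*RSC4* (YKR008W_mRNA), which carries bromodomains that bind acetylated histone H3, stood at 10.7 and 12.5 TPM in *arp8-AA* cells, against 11.8 and 13.3 TPM in *ARP8* cells, at 10 min. There the log2 fold change was -0.29 ± 0.24 (SE, n = 2 each; edgeR adjusted p = 1). *RSC30* had 0.05 in asynchronous cells, 0.09 at 10 min and -0.26 at 20 min, and summed with YHR054C it had 0.11, 0.09 and -0.09. *RSC2* had -0.04, -0.10 and -0.25, in that order. The remaining RSC genes were *RSC6* (YCR052W_mRNA), *RSC9* (YML127W_mRNA) and *RSC58* (YLR033W_mRNA), whose estimates lay between -0.19 and 0.24, together with *HTL1*, *LDB7* and *RSC8*, between -0.31 and 0.21, and *RSC1*, between -0.29 and 0.19.

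The 3 genes that RSC and SWI/SNF share encode actin-related proteins and the small protein that stabilises them. *ARP9* (YMR033W_mRNA) averaged 40.5 TPM, *RTT102* (YGR275W_mRNA) 38.0 TPM and *ARP7* (YPR034W_mRNA) 12.6 TPM. *ARP7* stood at 9.30, 6.28 and 7.41 TPM in asynchronous *arp8-AA* cells, against 12.6, 8.38 and 7.28 TPM in *ARP8* cells. These groups overlapped in TPM, and the log2 fold change was -0.42. Over the 3 genes and 3 states the estimates lay between -0.42 and 0.23, and none passed the test.

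SWI/SNF transcripts averaged from 6.07 TPM for *SWI1* (YPL016W_mRNA) to 64.9 TPM for *SNF6* (YHL025W_mRNA). Swi1 is a subunit through which activators recruit the complex. The ATPase gene *SNF2* (YOR290C_mRNA) stood at 31.7, 27.7 and 30.7 TPM in asynchronous *arp8-AA* cells, against 29.5, 24.3 and 21.7 TPM in *ARP8* cells. The groups overlapped and the log2 fold change was 0.13, with -0.03 at 10 min and 0.17 at 20 min. *SNF5* had 12.8 and 13.1 TPM in *arp8-AA* cells, against 14.5 and 13.3 TPM in *ARP8* cells, at 10 min. Both *arp8-AA* values were the lower, a separation whose share over all transcripts was not counted. For *SNF5* the log2 fold change there was -0.27 ± 0.17 (SE, n = 2 each; edgeR adjusted p = 1). *SNF6* and *SWI1* had estimates between -0.18 and 0.22, and *SWI3* (YJL176C_mRNA), *SNF12* (YNR023W_mRNA) and *SWP82* (YFL049W_mRNA) between -0.29 and 0.19.

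*SNF11* (YDR073W_mRNA), the gene of a small Snf2-binding subunit, was the only member to fail the filter on low counts, in released cells. It had 20.2, 6.38 and 14.4 TPM in asynchronous *arp8-AA* cells, from 34, 9 and 22 counts, against 18.2, 12.7 and 18.7 TPM in *ARP8* cells, from 23, 20 and 27 counts. The groups overlapped, with a log2 fold change of -0.46 ± 0.31 (SE, n = 3 each; edgeR adjusted p = 0.518). In the released libraries it had between 0 and 11 counts.

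The imitation switch complexes share their way of working, spacing nucleosomes, and their ATPase genes had nearly the same level. *ISW1* (YBR245C_mRNA) averaged 28.3 TPM and *ISW2* (YOR304W_mRNA) 30.7 TPM. *ISW2* was among the members of lowest p at 20 min, with 38.9 and 24 TPM in *arp8-AA* cells against 42.2 and 35.8 TPM in *ARP8* cells, a log2 fold change of -0.36 ± 0.15 (SE, n = 2 each; edgeR adjusted p = 0.694). In asynchronous cells it was 0.01. For *ISW1* the estimates were -0.09 in asynchronous cells, 0.04 at 10 min and -0.01 at 20 min.

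The partners of Isw1 were carried by *IOC3* (YFR013W_mRNA) at 39.2 TPM, *IOC4* (YMR044W_mRNA) at 32.1 TPM and *IOC2* at 17.8 TPM on average, and the partner of Isw2 by *ITC1* (YGL133W_mRNA) at 15.8 TPM. Ioc3 forms one complex with Isw1, and Ioc2 and Ioc4 form another. None passed the test between genotypes, and their estimates lay between -0.18 and 0.19. *CHD1* (YER164W_mRNA) stood at 23.2, 21.1 and 25.6 TPM in asynchronous *arp8-AA* cells, against 27.9, 18.8 and 19.0 TPM in *ARP8* cells, with a log2 fold change of -0.02, and had -0.06 at 10 min and 0.24 at 20 min. *FUN30* (YAL019W_mRNA) stood at 28.7, 27.3 and 26.4 TPM in asynchronous *arp8-AA* cells, against 26.9, 26.3 and 28.4 TPM in *ARP8* cells, with -0.11, and had -0.08 at 10 min and -0.13 at 20 min. For both genes the asynchronous groups overlapped.

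Several subunits have a relative that takes its place in another complex or in another form of the same complex. *RSC1* and *RSC2* encode alternative subunits of RSC, and *RSC2* was the higher in all 14 libraries, by 9.91-fold on average. The log2 ratio of *RSC1* to *RSC2* averaged -3.03 in *arp8-AA* and -2.81 in *ARP8* asynchronous cells. *SFH1* lay below its SWI/SNF relative *SNF5* in 14 of 14 libraries, by 6.25-fold on average, and *ARP7* below its partner *ARP9* in 14 of 14, by 3.42-fold. *STH1* exceeded *SNF2* in 14 of 14, by 1.90-fold. *RSC3* exceeded *RSC30* in 14 of 14, by 2.05-fold, with the limit on *RSC30* given above.

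For *RSC8* and its SWI/SNF relative *SWI3*, which both encode SANT domain scaffold proteins, the ratio differed between the released and the asynchronous libraries. Their log2 ratio lay between 0.55 and 0.74 in the 8 released libraries, against 1.12 to 1.46 in the 6 asynchronous ones. The ranges did not overlap and held both genotypes. This was the only pair of the 9 that lay apart, and it was singled out after the values were seen. How often the ratio of any 2 transcripts lies apart was not counted. Of single transcripts, 24.8% lay apart in TPM, above or below. *RSC6* and its relative *SNF12* lay between -0.34 and 0.63 in released libraries, against 0.62 to 1.26 in asynchronous ones, and these ranges touched. *RVB1* was above *RVB2* in 12 of 14 libraries and *ISW1* above *ISW2* in 4 of 14, so these pairs had no fixed order. All these ratios of levels are descriptions without a test, since the libraries of both growth states come from separate experiments.

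**Figure D3:**
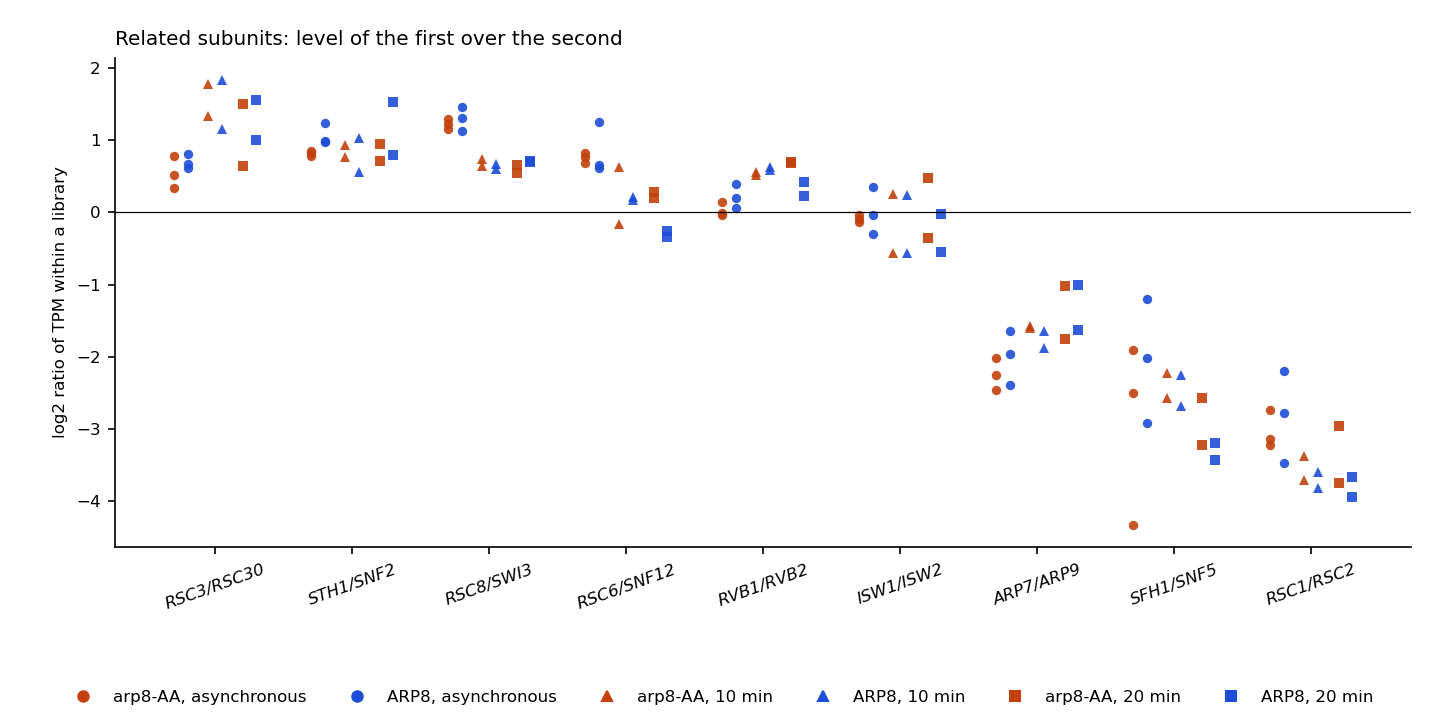
Log2 ratio of the TPM of related subunits within each of the 14 libraries (vertical axis) for 9 pairs of genes; colour marks the genotype and shape the growth state, and 0 means equal levels. *RSC1* lies below *RSC2* in every library, and for *RSC8* over *SWI3* the released libraries (0.55 to 0.74) lie below the asynchronous ones (1.12 to 1.46). Of the 9 pairs it is the only one in which these lie apart.

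Between 20 and 10 min after release, 0 of 46 members were called in *arp8-AA* cells, where 0.0183% of the 5453 transcripts tested were, and 0 of 46 in *ARP8* cells, where 0.11% were. Averaged over both genotypes, 0 of 46 members and 1.54% of all transcripts were called (edgeR). Unadjusted p values under 0.05 were found for 2, 2 and 3 members in that order (4.35, 4.35 and 6.52%), beside 9.98, 10.1 and 15.9% of all transcripts. Estimates above 0 were found for 24, 33 and 27 members (52.2, 71.7 and 58.7%), beside 50.1, 46.9 and 49.6% of all transcripts. As for genotype, such counts describe the list only. DESeq2 called 0 members in these comparisons, and 38, 27 and 142 transcripts in all. Of the 8 core histone genes, 7 rose over both genotypes in the same test. The 95% intervals of the members lay within 2-fold for 43 of 46 in *arp8-AA* cells and 43 of 46 in *ARP8* cells, and for all 46 over both genotypes.

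The member with the lowest p for time was *SNF5*. In *arp8-AA* cells it stood at 18.02 and 18.8 TPM at 20 min, against 12.8 and 13.1 TPM at 10 min. Both values at 20 min were the higher, and how many of all transcripts separated so was not counted. For *SNF5* the log2 fold change was 0.59 ± 0.17 (SE, n = 2 each; edgeR unadjusted p = 0.00493, adjusted p = 0.298). *ARP8* cells had 16.4 and 16.99 TPM at 20 min, against 14.5 and 13.3 TPM at 10 min. Over both genotypes the change was 0.39 ± 0.12, with an edgeR adjusted p of 0.131, and it was higher at 20 min in all 4 pairs. The interaction for *SNF5*, 0.40 ± 0.23, had an edgeR adjusted p of 0.962, so the change was not shown to differ between genotypes.

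*RSC4* stood at 13.02 and 21.2 TPM at 20 min, against 10.7 and 12.5 TPM at 10 min, in *arp8-AA* cells. The estimate was a log2 of 0.64 ± 0.23 (SE, n = 2 each; edgeR adjusted p = 0.427), and over both genotypes it was 0.45 ± 0.16 (edgeR adjusted p = 0.204). *ARP7* stood at 14.3 and 23.3 TPM at 20 min, against 12.2 and 11.0 TPM at 10 min, in *ARP8* cells. It had a log2 fold change of 0.59 ± 0.24 there (SE, n = 2 each; edgeR adjusted p = 0.415) and of 0.40 ± 0.16 over both genotypes (edgeR adjusted p = 0.266). In both genes replicate 2 at 20 min was the highest released library of its genotype, as was its histone level. The part of the histone level in these values was not tested.

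For *RSC30* the change in *ARP8* cells was 0.46 ± 0.19 (SE, n = 2 each; edgeR adjusted p = 0.432), and 0.37 ± 0.19 when its counts were summed with those of YHR054C (edgeR adjusted p = 0.540). *RSC3* had -0.37 ± 0.18 in *arp8-AA* cells (SE, n = 2 each; edgeR adjusted p = 0.539) and *SWR1* -0.30 ± 0.15 in *ARP8* cells (SE, n = 2 each; edgeR adjusted p = 0.563). By direction alone, 6 of 46 members (*STH1*, *RSC4*, *RSC30*, *SNF5*, *SWP82* and *ITC1*) were higher at 20 min in every one of the 4 pairs, beside 10.9% of all transcripts. Just 1, *SWR1*, was lower in every pair, beside 13.4%.

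**Figure D4:**
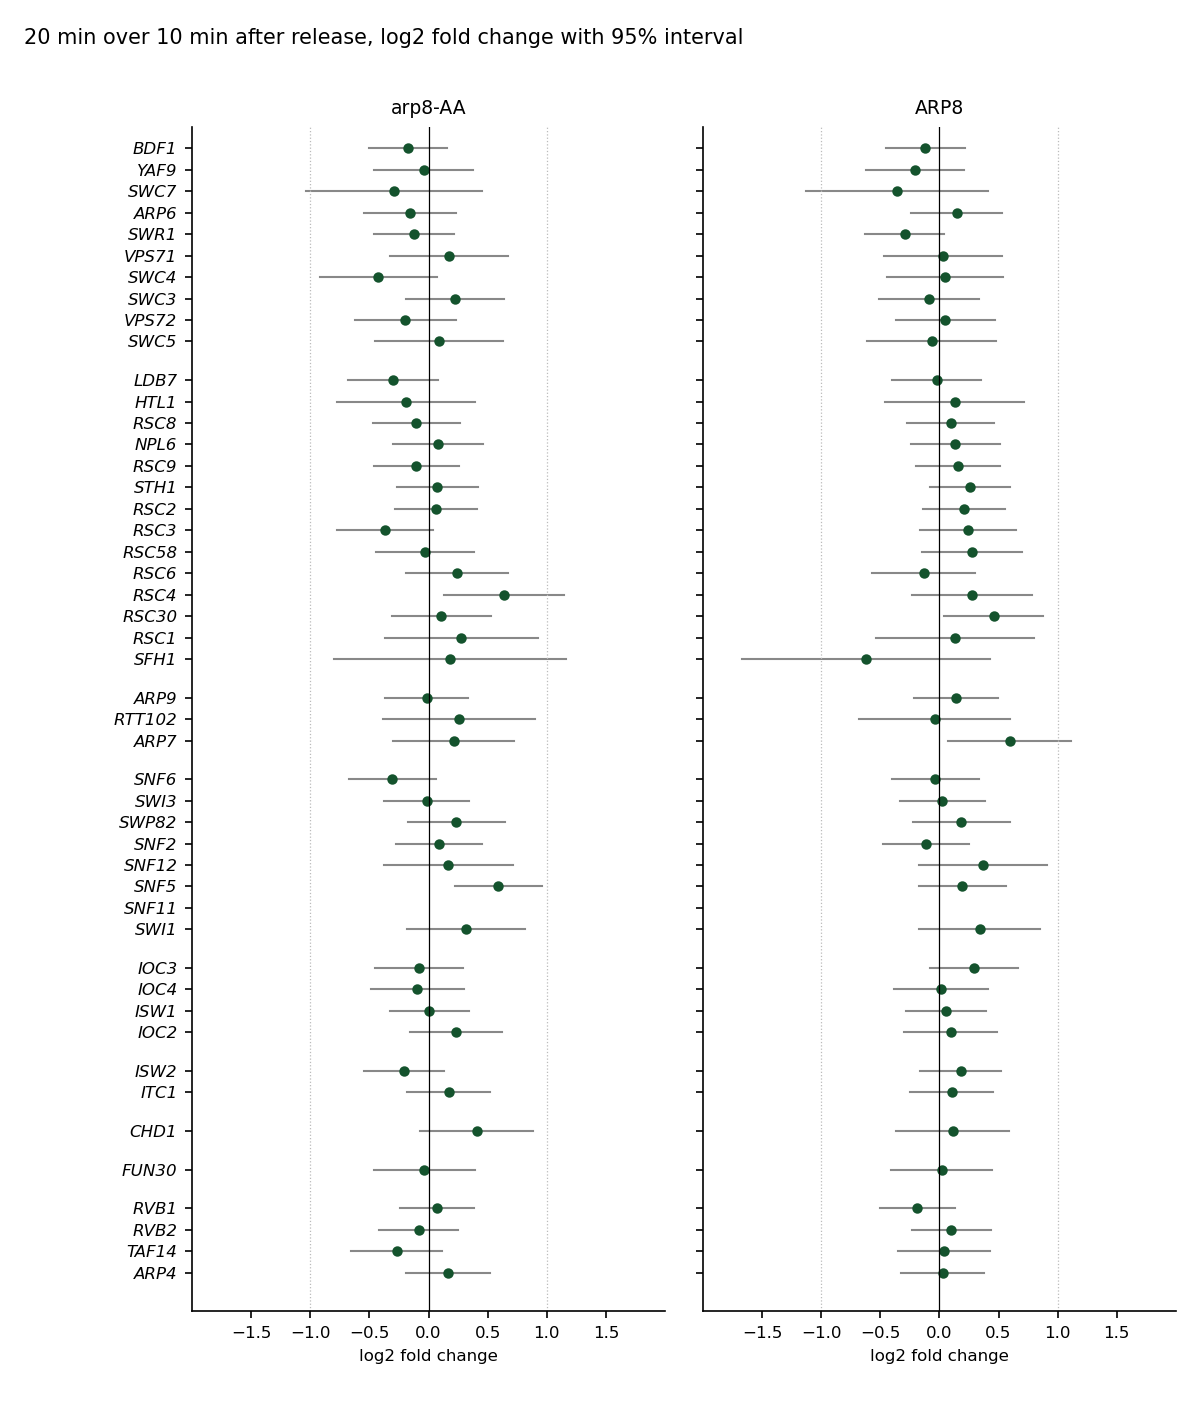
Log2 fold change of 20 min over 10 min after release (horizontal axis) for each tested member (rows, grouped by complex) in *arp8-AA* and in *ARP8* cells; points are the edgeR estimates from 2 libraries per group, bars their 95% intervals, and dotted lines mark a 2-fold change. *SNF5* and *RSC4* in *arp8-AA* cells and *ARP7* and *RSC30* in *ARP8* cells are the points whose bars do not reach 0.

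Set against asynchronous cells, the released cells of both genotypes stood apart in 7 of 47 members (14.9%), a share near the 16.1% of all transcripts. The growth state and the experiment cannot be told apart here, so the values are described without a test, on counts scaled by library size (CPM) with TMM factors over all 14 libraries. On that scale the median transcript differed by a log2 of -0.0029 between released and asynchronous libraries, and the median member by -0.11. In 6 of 47 members all 8 released libraries lay below all 6 asynchronous ones, beside 8.23% of the 5493 transcripts compared. They were *STH1*, *RSC4*, *RSC6* and *RSC30* of RSC and *SNF6* and *SNF11* of SWI/SNF. In 1 member, *IOC3*, all released libraries lay above, beside 7.86%.

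The largest difference was that of *SNF11*, which failed the low count filter in the released libraries. It entered this comparison only through the asynchronous libraries, where it is high. Its place among the members that lay below is therefore no support for a difference. Its level in released cells was between 0 and 1.89 CPM (median 1.38), against between 4.65 and 14.3 (median 11.1) in asynchronous cells. That is 8.50-fold lower in the mean. With at most 11 counts in a released library, the level there rests on few reads. It was also the only member to lie lower in every released library in deposited TPM, in which all transcripts shift by a median log2 of 0.36. On that scale 9 members (19.1%) lay above, beside 22% of all transcripts, and 1 (2.13%) below, beside 2.84%, so the balance of higher and lower members turned with the scale.

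*RSC4* had between 26.0 and 61.3 CPM (median 38.1) in released cells, against 61.5 to 104 (median 66.8) in asynchronous cells, 1.84-fold lower in the mean. Its highest released library, *arp8-AA* replicate 2 at 20 min, came within 1 CPM of the lowest asynchronous one. *RSC6* lay 1.55-fold, *SNF6* 1.52-fold and *STH1* 1.22-fold lower in released cells. In deposited TPM *RSC6* was 1.20-fold and *SNF6* 1.17-fold lower, while the direction of *STH1* turned, with a mean of 56.96 TPM in released cells against 52.8 TPM in asynchronous cells. For *STH1* the gap in CPM was narrow, with a highest value of 398 in released cells and a lowest value of 399.9 in asynchronous cells. *IOC3* had between 140.2 and 192 (median 172) in released cells, against 107.7 to 139 (median 122) in asynchronous cells, 1.37-fold higher in the mean.

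The position of *RSC30* in this list is uncertain because of the shared sequence. Its estimated level was between 35.0 and 56.2 CPM in released cells, against 61.1 to 85.2 in asynchronous cells. YHR054C went the other way, with 33.1 to 60.2 in released cells against 13.6 to 29.0 in asynchronous cells. The sum of both overlapped, with 73.0 to 104 in released cells against 81.8 to 109.9 in asynchronous cells, and a log2 difference of -0.06. Reads from the bases found in *RSC30* alone were not analysed here, so whether its own level was lower in released cells was not settled by these values.

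**Figure D5:**
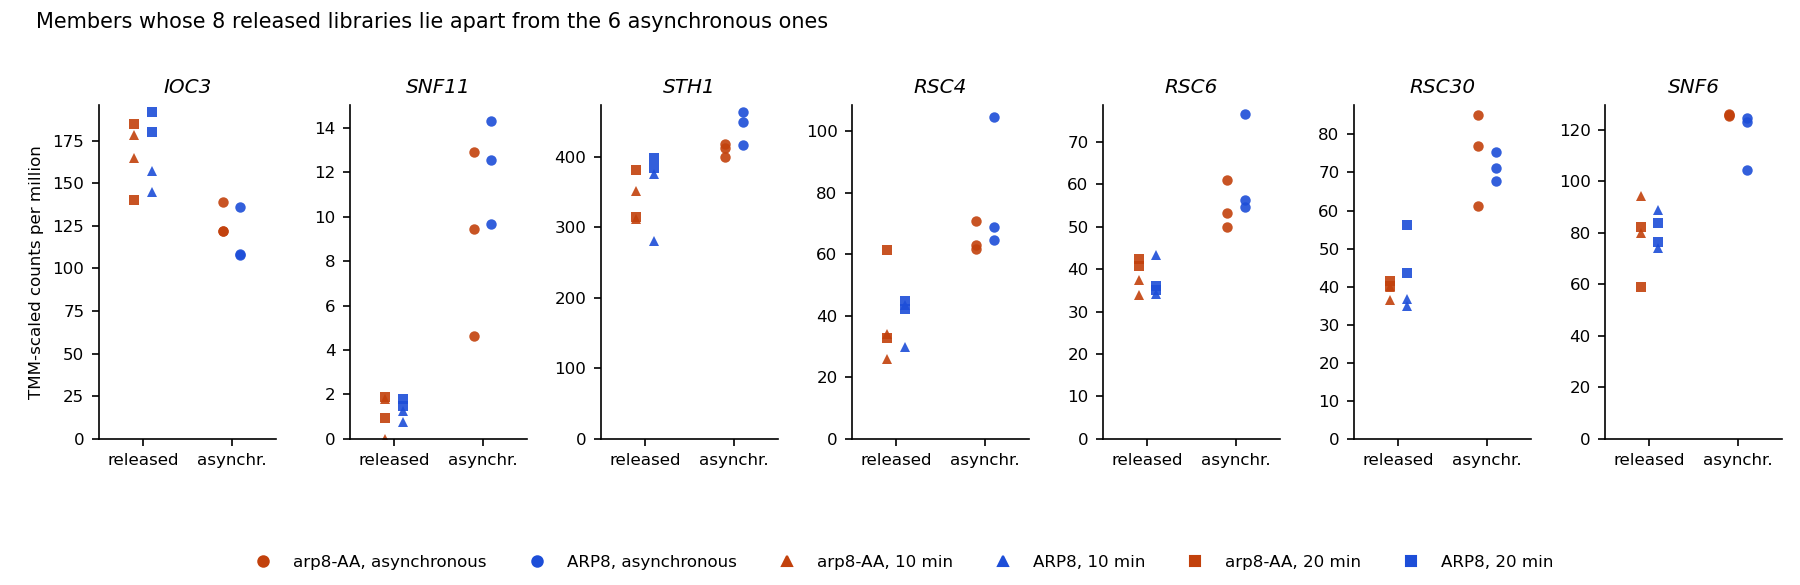
TMM-scaled CPM (vertical axes, from 0) in the 8 released libraries (left in each panel) and the 6 asynchronous libraries (right) for the 7 members in which these do not overlap; colour marks the genotype and shape the time. On this scale *IOC3* is higher in released libraries and the other 6 are lower (*STH1* has a higher mean there in deposited TPM), *SNF11* with 0 to 1.89 against 4.65 to 14.3. The low count filter kept *SNF11* only through its asynchronous libraries.

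In released cells several members differed between the replicates in both genotypes and at both times. In 11 of 46 members all 4 libraries of replicate 2 lay below all 4 of replicate 1, beside 12.6% of all transcripts. In 4 members (*ARP4*, *TAF14*, *VPS71* and *ISW1*) they lay above, beside 11.7%. *BDF1* had the widest such gap. It stood at 55.8 TPM in *arp8-AA* and 48.0 TPM in *ARP8* cells of replicate 2 at 10 min, against 105.5 and 119 TPM in replicate 1, and at 43.7 and 58.4 TPM in replicate 2 at 20 min, against 94.2 and 92.3 TPM in replicate 1. On the TMM scale that is 1.73-fold lower.

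*SNF2* lay 1.51-fold, *RSC3* 1.36-fold, *SWR1* 1.35-fold and *LDB7* 1.33-fold lower in replicate 2, and the other 6 were *SWC5*, *RSC8*, *NPL6*, *SNF6*, *IOC4* and *ITC1*. *ISW1* was 1.33-fold higher in replicate 2, with 186 to 202 CPM against 136 to 150.4, while *ISW2* had 134.7 to 190.1 against 187 to 218. The replicate number was a block in the fits behind the genotype and time estimates given above. The block takes out only the part of a gap that is equal in all released groups. A part that differs between the groups remains in those estimates, and its size was not tested. Core histone levels moved with the replicate in the same libraries, and their part in these gaps was not tested.

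Genes that work beside the members also gave no edgeR calls. Of 10 genes specific to INO80, 2 further ISW2 subunits (*DPB4* and *DLS1*), 9 subunits of NuA4, 17 histone chaperone genes and *HTZ1*, which encodes the H2A.Z that SWR1 deposits, 0 were called by edgeR in any of the 8 comparisons. DESeq2 called 1, the chaperone gene *RLF2*, between 20 and 10 min over both genotypes. Of these 39 genes, between 0 and 5 had an unadjusted p under 0.05 in a comparison, where between 2.02 and 15.9% of all transcripts did. The 5 were found between 20 and 10 min in *ARP8* cells, beside 10.1%. *HTZ1* stood at 23.2 and 57.8 TPM at 20 min, against 12.2 and 20.9 TPM at 10 min, in *arp8-AA* cells, and at 29.1 and 45.2 TPM at 20 min, against 23.95 and 20.03 TPM at 10 min, in *ARP8* cells. It was higher at 20 min in both genotypes and did not pass the test.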

How the data were processed

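RNA was taken from asynchronous and from α-factor released cultures, depleted of ribosomal RNA and sequenced in paired-end mode from directional libraries. The authors pseudoaligned reads to the transcripts of R64 (annotation version 108) by running kallisto 0.48 with its defaults, under which strand is ignored and shared reads are divided. The authors deposited estimated counts and TPM per transcript and library, and TPM was recomputed from counts and effective lengths within 0.00101%. No column was left without a sample.

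Estimated counts were rounded and tested with edgeR 4.0.16 (on R 4.3.3, limma 3.58.1): TMM factors (0.940 to 1.05), filterByExpr, quasi-likelihood F-test with the replicate number as a block, Benjamini-Hochberg adjustment over all transcripts tested, and calls at an adjusted p under 0.05. Asynchronous and released libraries were fitted apart. Intervals are 95%. Depth limits genes with few counts. Each SE is the size of the log2 fold change over the square root of the edgeR F statistic. The spread behind it borrows from other genes. For released cells it comes from all 8 libraries in 1 fit, not only from the libraries counted as n. Equal replicate numbers pair libraries: deviations from group means correlated across genes at r between 0.174 and 0.329 (asynchronous, where the differently numbered *arp8-AA* replicate 2 and *ARP8* replicate 3 also had 0.18) and between 0.478 and 0.653 (released). The closest replicates still differed, with a chi-square of 1.61 per degree of freedom.

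The alternatives were a fit without the block, DESeq2 1.42.0, RLE factors, no low count filter, a threshold of 0.1, all 14 libraries in 1 fit, time points or genotypes fitted alone, each library left out, CPM per kb in place of TPM, and *RSC30* with YHR054C as 1 feature. The last, and the comparisons of released with asynchronous cells and of replicates, were added after the data were seen. The edgeR fit was tested on simulated data. Members and lists were chosen with earlier results of these data known. Named members are the 3 of lowest p in each comparison, the ATPases, subunits shared with INO80, related pairs, the highest and lowest of each complex, and members that fail the filter. Members that stood apart between released and asynchronous libraries or between replicates were named after their values were seen. Coding sequences and 31-base words came from the RefSeq annotation of R64, with Python 3.11.15 and matplotlib 3.10.9.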

Additional observations from a re-analysis of the deposited data

How the results depend on the processing

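No member was called in any of 114 alternative tests over the 8 comparisons, with or without the replicate block. The threshold of 0.1 was applied to the main fit only, and the other alternatives were called at 0.05. The smallest adjusted p of a member was 0.0561 (edgeR), for *SNF5* between 20 and 10 min with all 14 libraries in 1 fit. That value lies under 0.1. Of 342 alternative values of 24 named log2 fold changes, 0 changed sign, but 22 moved by over 1.5 times, all on leaving out 1 library. They belonged to 13 of the 24. The log2 fold change of *SFH1* in asynchronous cells lay between -1.42 and -0.43, those of *RSC3* between -0.69 and -0.24 and of *SWC4* between -0.72 and -0.17 at 20 min, that of *YAF9* at 10 min between -0.40 and -0.11 and that of *NPL6* over both times between -0.34 and -0.11. For 20 over 10 min, *RSC3* lay between -0.61 and -0.16 and *RSC4* between 0.30 and 0.89 in *arp8-AA* cells. Without the replicate block 0 members were called, and 4 transcripts in asynchronous cells in place of 49. The number of transcripts called moved by more than 1.5 times in every comparison. It lay between 4 and 158 for *arp8-AA* over *ARP8* in asynchronous cells, between 0 and 48 at 10 min, 0 and 7 at 20 min and 0 and 28 over both times, between 0 and 3 for the interaction, and between 0 and 54 in *arp8-AA*, 0 and 95 in *ARP8* and 0 and 183 in both genotypes for 20 over 10 min. With DESeq2 these counts were 29, 5, 4, 28, 1, 38, 27 and 142 in the same order. Leaving out *arp8-AA* asynchronous replicate 3 left 12 calls there. In TMM-scaled CPM per kb, the shares of summed level were 37.0% for RSC, 12.6% for SWI/SNF, 6.65% for ISW1 and 2.69% for ISW2. In deposited TPM, 9 members lay above (beside 22% of all transcripts) and 1 below (beside 2.84%) in all released libraries against asynchronous ones. Depth limited *SFH1* and *SNF11* most. With 2 or 3 libraries per group, differences of any size inside the 95% intervals remained possible.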
